A study of Rattus norvegicus with 8 samples.

Results

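Hsd17b12 and Hsdl2, the genes of a pair of enzymes named as hydroxysteroid dehydrogenases, gave higher array signals in the lumbar spinal cord of stressed rats than in that of control rats, and were examined together with 8 genes of related function. The 10 genes were Hsd17b12, Hsdl2, Hsdl1, Hsd17b4, Hsd17b7, Hsd17b10, Hsd17b11 and the fatty acid elongases Elovl1, Elovl5 and Elovl6. They were found by gene symbol in the annotation of the array, which gave 12 probes on 22 spots among 30367 probes in all, and each of the 10 genes had at least 1 probe. Hsd17b12 and Hsdl2 were chosen because both stood in a network that the study drew from the genes it found changed by stress in these same 8 samples. They are treated here as chosen on their signals, though the network also holds molecules beyond that gene list. Their difference between the groups is therefore given below as a description with no p-value, nothing is read from their calls, and the other 8 genes were chosen for their function beside them.

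The samples were lumbar L6S1 segments of the spinal cord of male Wistar rats, 12 weeks old, with 4 samples per group. Rats of the stress group went through water avoidance (WA) stress, in which a rat stands on a small platform in a water-filled cage for 1 h, on each of 10 days, whereas control rats were handled. Tissue was taken 24 h after the last session, the cord was flushed out with iced saline and the meninges were removed. RNA of each sample was hybridised to its own 1-colour Agilent array. The labels do not say whether each sample came from a separate rat, so the p-values below measure the spread between these samples.

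Hydroxysteroid dehydrogenases oxidise or reduce a hydroxyl or keto group of a steroid, and most belong to the family of short-chain dehydrogenases. Several of those numbered as type 17 act mainly on other lipids. Very long chain fatty acids are built in the endoplasmic reticulum by a cycle that begins with condensation by an ELOVL elongase and goes on with reduction by the 3-ketoacyl-CoA reductase encoded by Hsd17b12. In the spinal cord such acids enter the sphingolipids of myelin, which oligodendrocytes make.

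The Hsd17b12 probe began at base 374 of the transcript and matched the minus strand of rat chromosome 3, assembly rn4, between 78470644 and 78487256. This stretch of 16613 bases is far longer than the probe itself, so the probe lay across a junction of exons. It is shown because its letters fall in the nucleotide-binding fold of the enzyme: the capitals mark codons for the Asn-Asn-x-Gly pattern (any amino acid at x) that short-chain dehydrogenases carry. The Hsdl2 probe began at base 945 and matched the plus strand of chromosome 5, between 77704451 and 77706298, also across a junction. The upstream probe of Elovl6, at base 446 on chromosome 2 between 227047594 and 227052367, is shown with them because it too crossed a junction and because a second Elovl6 probe stood farther downstream.
Hsd17b12: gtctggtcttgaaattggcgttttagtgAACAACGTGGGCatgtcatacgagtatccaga
Hsdl2: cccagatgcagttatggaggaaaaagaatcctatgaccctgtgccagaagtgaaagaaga
Elovl6 upstream probe: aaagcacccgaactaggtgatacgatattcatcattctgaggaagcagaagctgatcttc
Each of the 3 probes had 60 bases, written 5′ to 3′ in the sense of the transcript, and each could be read without a stop codon in 1 of its forward frames. Codons for Asn-Asn-x-Gly in any frame of the printed strand were found in 78 of the 30367 probes (0.257%). The other probes of these genes each matched 1 unbroken stretch of the genome.

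Signals are given on a log2 scale relative to the 75th percentile of the same array, so that 0 is the level of that percentile and a difference of 1 is a change of 2-fold. These values compare 1 probe between samples and say nothing of the level of 1 gene against another. All 12 probes were well above background on all 8 arrays, and none of their spots was saturated or marked as an outlier. In whole tissue, fewer cells of a type and less RNA per cell cannot be told apart.

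Features of the arrays that bear on several genes are given first. All 8 arrays lay on 1 slide, with the stress samples in row 1 and the controls in row 2, so that row and group cannot be told apart. A 5′ to 3′ balance was formed for each array as the median, over 1885 transcripts whose outermost probes began 300 bases or more from each other, of the upstream minus the downstream signal, with the mean of the 8 arrays set to 0 for each transcript. It lay between 0.09 and 0.17 in the stressed rats, at -0.30, -0.30 and -0.18 in 3 controls, and at 0.22 in control replicate 2. Control replicate 2 thus stood with the stressed rats on this measure, and the difference between the groups did not pass the exact permutation test (two-sided p = 0.143, where the smallest p that 4 against 4 allows is 0.0286). The differences of the 10 genes and the calls in the related lists are therefore also given without control replicate 2 and with the 5′ to 3′ balance of the array as a covariate. With control replicate 2 left out, the balance lay below 0 in every control and above 0 in every stressed rat. Balance and stress therefore cannot be told apart in that fit. The fit with the covariate separates them mainly through control replicate 2, so these fits are not independent checks.

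Markers of spinal cord cells were present throughout. The summed linear signal of 8 oligodendrocyte markers, relative to the 75th percentile, ran from 235 to 341 in the controls and from 256 to 351 in the stressed rats (exact permutation p = 0.229, two-sided). That of 7 astrocyte markers ran from 52.7 to 64.0 and from 58.8 to 77.3 (p = 0.0857, same exact test). The sum of 4 Schwann cell markers, which belong to nerve roots, spread from 0.296 to 53.1 among the controls and from 0.283 to 13.3 among the stressed rats. For markers of neurons (6 genes), microglia (7), meninges and fibroblasts (5), endothelial cells (6) and red blood cells (4) the exact p lay between 0.4 and 0.914. Among single markers, each at its brightest probe, limma called Mog of oligodendrocytes (0.90, adjusted p = 0.0721) and Pecam1 of endothelial cells (0.40, adjusted p = 0.0927) higher and Eno2 of neurons (-0.37, adjusted p = 0.0649) lower, each without overlap of the groups. A second Eno2 probe, at base 769, differed by -0.04 (adjusted p = 0.934, limma) and its groups overlapped. Of the 6 neuron markers, 4 had a difference above 0, and their median was 0.11. Over all 8 arrays limma called 2.35% of all gene symbols higher and 1.28% lower, and the groups did not overlap for 12.1% of all probes. Without control replicate 2, 4 of 8 oligodendrocyte, 4 of 7 astrocyte and 3 of 6 endothelial markers were called higher. So were 2 of 6 neuron and 1 of 7 microglia markers, beside 26.5% of all gene symbols. In the same fit 1 neuron marker and 1 endothelial marker were called lower, beside 14.6%. With the balance as a covariate no oligodendrocyte marker was called higher. In that fit 1 astrocyte marker, Fgfr3, was called lower. Eno2 and Snap25 of neurons were also called, 1 of them higher and 1 lower. Of all gene symbols 4.39% were called higher and 6.18% lower. The part of these cell types in the results below was not tested.

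Hsd17b12, the reductase of the elongation cycle, had values of -0.03, 0.04, 0.19 and -0.04 in stress replicates 1 to 4. In control replicates 1 to 4 its values were -1.58, -0.52, -1.51 and -1.14. Every stressed rat was above every control, the stressed rats lay close together, and control replicate 2 was the control nearest to them. The mean was 0.04 ± 0.11 in the stressed rats and -1.19 ± 0.48 in the controls (SD, n = 4 each), a difference of 1.23 (SE 0.22), or 2.34-fold. On the linear scale, before scaling, the processed signal of the probe ran from 715 to 1281 in the controls and from 1717 to 2201 in the stressed rats. Its pair of spots differed by at most 0.25 on any array, less than the gap between the groups.

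Hsdl2 encodes a peroxisomal short-chain dehydrogenase with a sterol carrier domain. Its values were -0.21, -0.12, -0.08 and -0.16 in the stressed rats and -0.95, -0.41, -0.79 and -0.67 in the controls. The order of the samples was much the same as for Hsd17b12: all stressed rats were higher, and control replicate 2 was again the highest control. The means were -0.14 ± 0.06 and -0.70 ± 0.23 (SD, n = 4 each), which is a difference of 0.56 (SE 0.12), or 1.48-fold.

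Over all 23678 probes tested, the median difference was 0.06, and 273 probes (1.15%) were higher in stressed rats by as much as Hsd17b12 or more. For Hsdl2 the same count was 2292 probes (9.68%). Stressed rats and controls did not overlap, with the stressed rats higher, for 6.65% of all probes. At a false discovery rate (FDR) below 0.1, limma called 885 of the 23678 probes (3.74%), 655 of them higher (2.77%) and 230 lower (0.971%). The 2 of the 10 genes called were Hsd17b12 and Hsdl2, and nothing is read from this because they were chosen from these same data.

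The size of both differences moved with the handling of control replicate 2 and of the 5′ to 3′ balance. Without control replicate 2, the Hsd17b12 difference was 1.45 (SE 0.12) and that of Hsdl2 was 0.66 (SE 0.08). With the 5′ to 3′ balance as a covariate they were 0.68 (SE 0.10) and 0.32 (SE 0.08). The balance of control replicate 2 (0.22) lay above that of every stressed rat. In that sample Hsd17b12 was 0.89 above the mean of the other 3 controls and 0.56 below the mean of the stressed rats. For Hsdl2 these distances were 0.39 and 0.27. Both genes were chosen from these same data, so the distances are a description only. The part of the 5′ to 3′ balance in these results was not tested further.

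**Figure D1:**
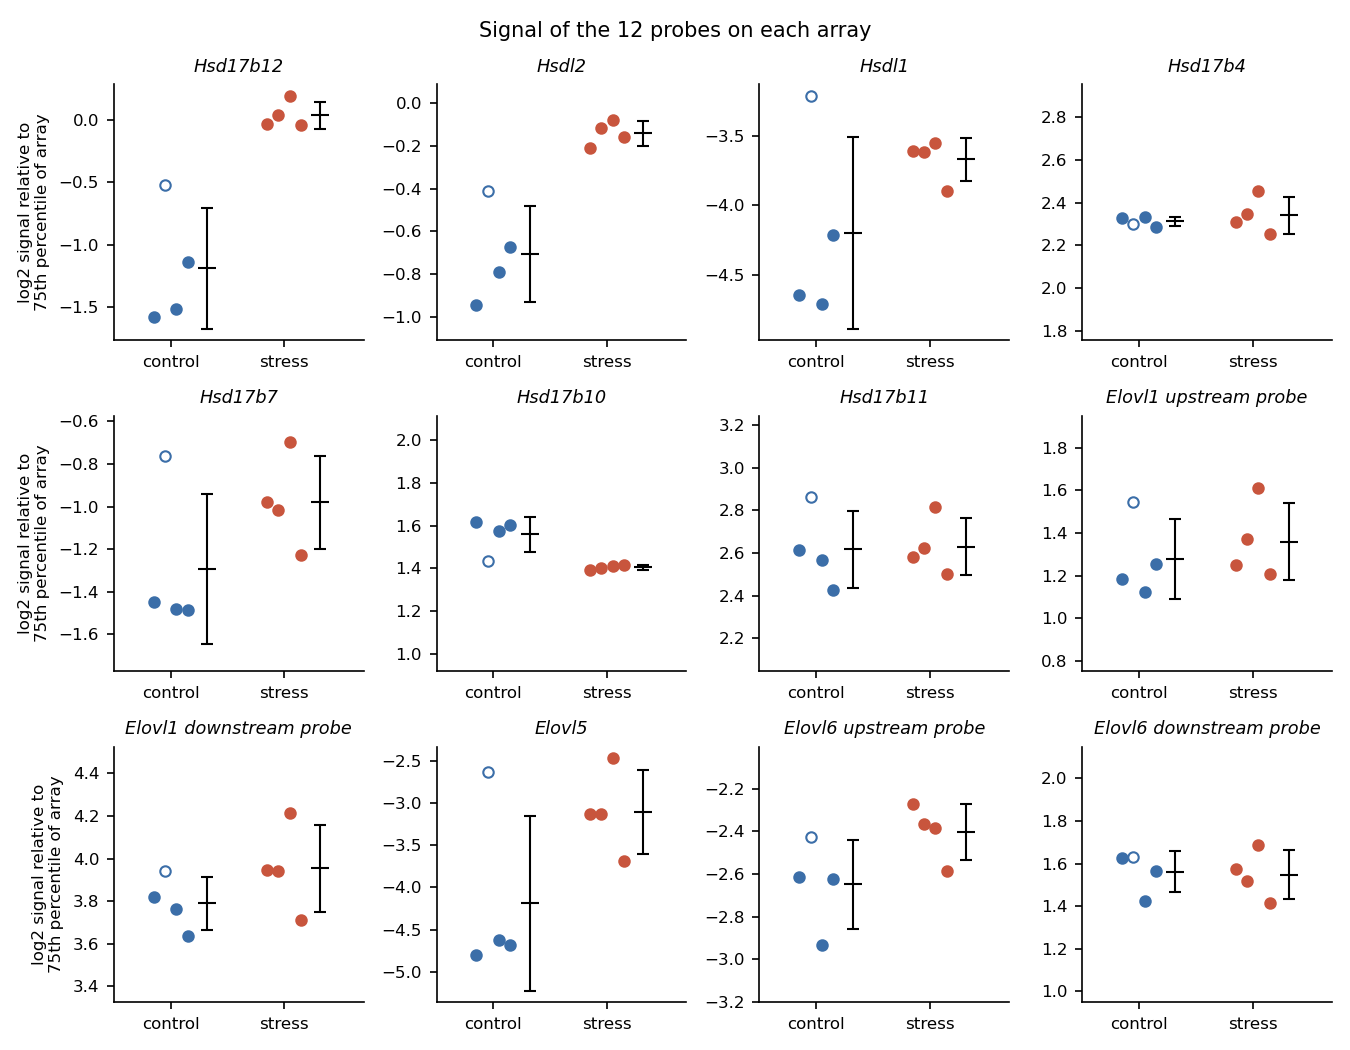
Signal of each of the 12 probes (vertical axis, log2 against the 75th percentile of that array, with its own range in each panel) in the 4 control and 4 stress samples. Points are single arrays, the open point is control replicate 2, and the black bars are the mean ± SD; Hsd17b12 and Hsdl2 show no overlap, with stressed rats higher, and Hsd17b10 none with stressed rats lower.

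Of the 8 genes chosen for their function, none was called by limma at FDR below 0.1 in either direction. Their brightest probes had a median difference of 0.10, beside 0.02 for the brightest probes of all 13384 gene symbols, of which 3.62% were called, 2.35% higher and 1.28% lower. None of the 8 had an unadjusted p under 0.05, whereas 20.3% of all tested probes did. The sign of the difference was positive for 6 of them.

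Among the steroid-type enzymes, Hsd17b4 encodes the peroxisomal D-bifunctional protein, which hydrates and dehydrogenates very long and branched chains during their shortening. Its probe (base 2338, chromosome 18, 45251361 to 45251420) gave 2.31, 2.35, 2.46 and 2.25 in the stressed rats and 2.33, 2.30, 2.33 and 2.29 in the controls. The groups overlapped and the controls differed little from each other. The difference was 0.03 (95% interval -0.13 to 0.19, adjusted p = 0.823, limma), so that a change of more than 1.14-fold upward was outside the interval.

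Hsd17b10 encodes a mitochondrial dehydrogenase of isoleucine breakdown that is also a subunit of mitochondrial RNase P. Its probe (base 541, chromosome X, 41491297 to 41491356) gave 1.39, 1.40, 1.41 and 1.41 in the stressed rats and 1.62, 1.44, 1.58 and 1.60 in the controls. All stressed rats were below all controls, by a narrow margin to control replicate 2, and this was also so for 5.44% of all tested probes. The difference was -0.15 (95% interval -0.31 to 0.00058, adjusted p = 0.247, limma).

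Hsd17b7 encodes the 3-ketosteroid reductase of cholesterol synthesis. Its probe (base 1584, chromosome 13, 85776080 to 85776139) gave -0.98, -1.02, -0.70 and -1.23 in the stressed rats and -1.45, -0.77, -1.48 and -1.48 in the controls. The stressed rats were above 3 controls that lay together, while control replicate 2 was within their range. The difference was 0.31 (95% interval -0.12 to 0.75, adjusted p = 0.371, limma).

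Hsdl1, whose product is a mitochondrial relative with no settled substrate, had a probe at base 1126 (chromosome 19, 49812014 to 49812073). It gave -3.61, -3.62, -3.55 and -3.90 in the stressed rats and -4.65, -3.21, -4.71 and -4.21 in the controls. Control replicate 2 was the highest of all 8 samples and the other 3 controls were the lowest. The difference was 0.53 (95% interval -0.20 to 1.25, adjusted p = 0.367, limma).

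Hsd17b11 encodes a dehydrogenase found on lipid droplets. Its probe (base 1491, chromosome 14, 6891408 to 6891467) gave 2.58, 2.63, 2.81 and 2.50 in the stressed rats and 2.61, 2.86, 2.57 and 2.43 in the controls. The groups covered nearly the same range, with a difference of 0.01 (95% interval -0.25 to 0.27, adjusted p = 0.956, limma).

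The 3 elongases act at the first step of the cycle that Hsd17b12 serves and differ in the chains they take. Elovl5 lengthens polyunsaturated chains, and its probe (base 695, chromosome 8, 82947178 to 82947237) gave -3.13, -3.13, -2.46 and -3.68 in the stressed rats. In the controls it gave -4.81, -2.63, -4.63 and -4.69. The samples were spread widely: 3 controls stood far below all other samples, and control replicate 2 was second only to stress replicate 3. The difference of 1.09, or 2.12-fold, was close in size to that of Hsd17b12, but its 95% interval ran from -0.08 to 2.26 (adjusted p = 0.271, limma). The processed signal of this probe ran from 77.2 to 349 over the 8 arrays. The likeness in size depended on the background correction. With normexp, the alternative correction, the difference of Elovl5 was 0.64 and that of Hsd17b12 was 1.12.

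Elovl1 makes the saturated very long chains used in sphingolipids and had a probe at base 858 (chromosome 5, 138912013 to 138912072) and a brighter one at base 1420 (138912575 to 138912634). The downstream probe gave 3.95, 3.94, 4.21 and 3.71 in the stressed rats and 3.82, 3.94, 3.76 and 3.64 in the controls. The groups overlapped, with a difference of 0.16 (95% interval -0.11 to 0.44, adjusted p = 0.450, limma). The upstream probe gave 1.25, 1.37, 1.61 and 1.21 against 1.18, 1.55, 1.13 and 1.25, with the groups again mixed and a difference of 0.08 (adjusted p = 0.722, limma).

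Elovl6 lengthens palmitate to stearate, ahead of the very long chains. Its brighter, downstream probe (base 2215, 227054046 to 227054105) gave 1.57, 1.52, 1.68 and 1.41 in the stressed rats and 1.63, 1.63, 1.42 and 1.57 in the controls, with no separation and a difference of -0.01 (95% interval -0.21 to 0.19, adjusted p = 0.941, limma). The upstream probe gave -2.27, -2.37, -2.39 and -2.59 in the stressed rats and -2.61, -2.43, -2.93 and -2.62 in the controls. Here most stressed rats were above most controls, and the difference was 0.25 (95% interval -0.03 to 0.53, adjusted p = 0.290, limma). The difference of the upstream probe exceeded that of the downstream probe by 0.26 (exact permutation p = 0.0571, two-sided, n = 4 against 4).

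Without control replicate 2, limma called 4 of these 8 genes: Elovl5 (difference 1.60, adjusted p = 0.00475), Hsdl1 (0.85, adjusted p = 0.00569) and Hsd17b7 (0.49, adjusted p = 0.0209) were higher in the stressed rats, and Hsd17b10 (-0.20, adjusted p = 0.0211) was lower. In that fit 42.4% of all probes were called, and among gene symbols 26.5% were called higher and 14.6% lower. The upstream Elovl6 probe was also called (0.32, adjusted p = 0.0647), whereas the brighter one and those of Elovl1, Hsd17b4 and Hsd17b11 were not. With the 5′ to 3′ balance as a covariate, none of the 8 genes was called, while 10.1% of all probes were, with the median of all probes moved from 0.06 to -0.04, and 4.39% of gene symbols were called higher and 6.18% lower. In that fit the differences of Elovl5, Hsdl1 and Hsd17b7 turned to -0.12 (SE 0.29), -0.27 (SE 0.08) and -0.10 (SE 0.14).

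**Figure D2:**
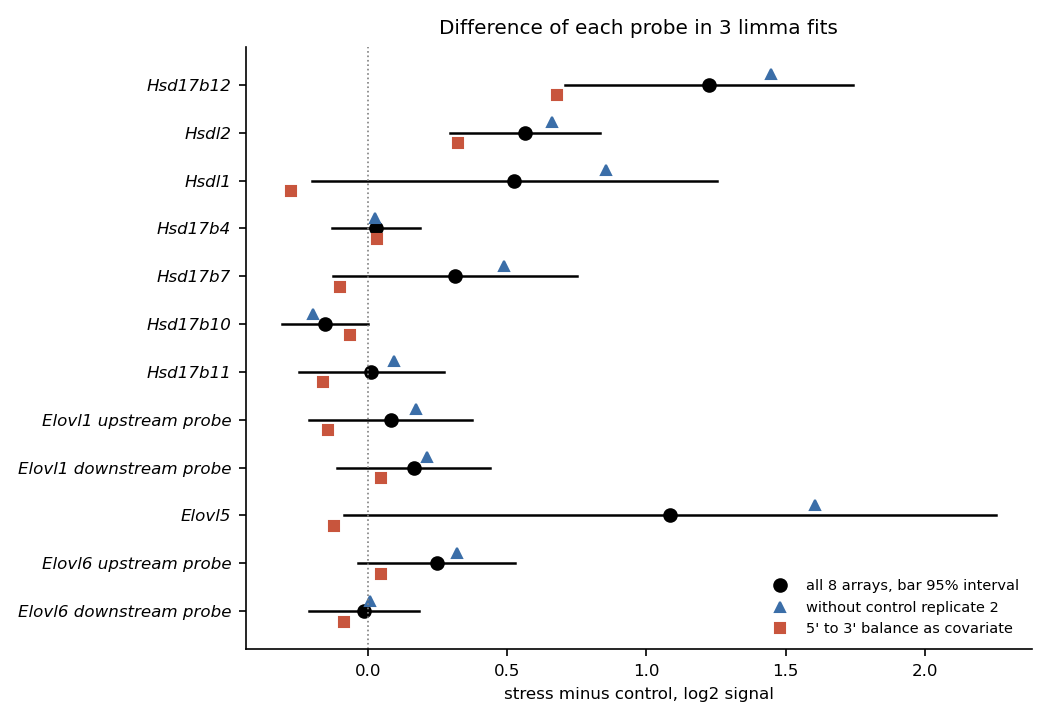
Stress minus control difference of each probe (horizontal axis, log2) from limma with all 8 arrays (black points, bars are 95% intervals), without control replicate 2 (triangles) and with the 5′ to 3′ balance of each array as a covariate (squares). Elovl5, Hsdl1 and Hsd17b7 lie above 0 in 2 of the fits and below 0 with the covariate. Hsd17b12 and Hsdl2, which were chosen from these same data, lie above 0 in all 3.

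Set against the 5′ to 3′ balance of the arrays, the genes fell into different patterns. Elovl5 in control replicate 2 was 2.07 above the mean of the other 3 controls, and within the range of the stressed rats. Hsd17b12 and Hsdl2 in that sample stood between the other controls and the stressed rats. These 2 genes were chosen for a difference between the groups in these same samples, and Elovl5 was not. Nothing is therefore read from their contrast with Elovl5. Hsd17b4 in control replicate 2 was 0.01 below the mean of the other controls, with no visible relation to the array measure.

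**Figure D3:**
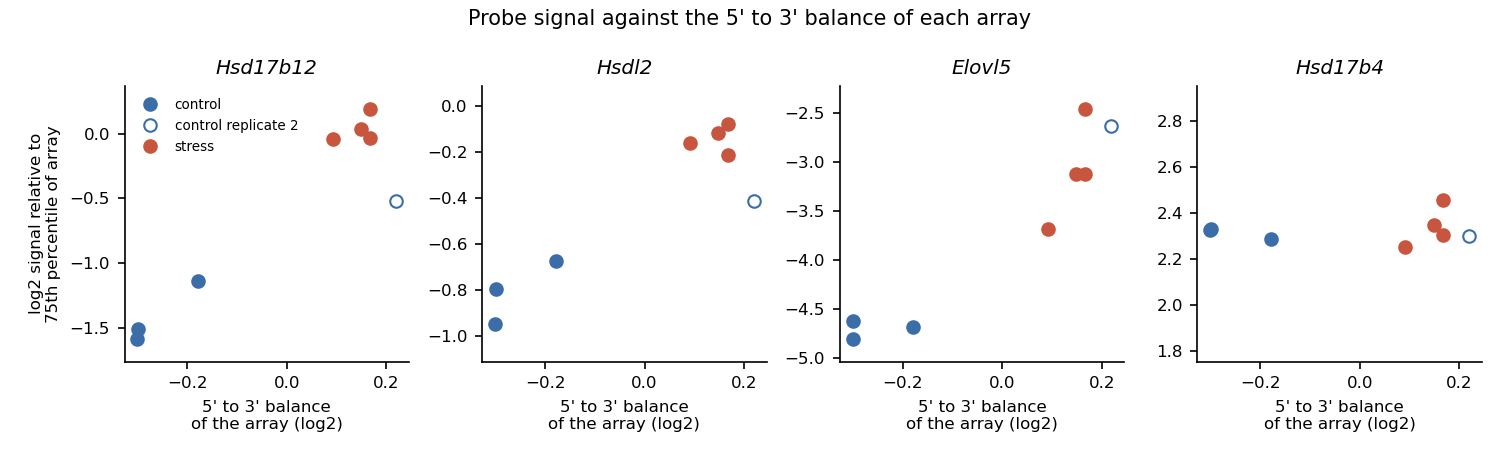
Probe signal of Hsd17b12, Hsdl2, Elovl5 and Hsd17b4 (vertical axis, log2 against the 75th percentile of that array) against the 5′ to 3′ balance of the same array (horizontal axis, log2), 1 point per array. The open point, control replicate 2, lies at 0.22 on the horizontal axis, beyond the 4 stress samples, and for Elovl5 it is also among them on the vertical axis.

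The profiles over the 8 samples were compared with those of 13383 other gene symbols. Closest to Hsd17b12 by Pearson correlation were Asah1, the acid ceramidase of lysosomes (r = 0.996), Tpd52 (0.995), Ptn, the growth factor pleiotrophin (0.994), Nbr1, an autophagy receptor (0.994), and Hsdl2 itself (0.994). Closest to Hsdl2 were Med13 (0.998), Asah1 (0.997), Foxn3 (0.996), Pcnp (0.994) and Ptn (0.994). Among the other 8 genes, Hsd17b12 had its highest correlations with Elovl5 (0.86), Hsdl1 (0.83) and Hsd17b7 (0.79), its lowest with Hsd17b10 (-0.96), and values of 0.60 with Elovl1, 0.33 with Hsd17b11, 0.25 with Hsd17b4 and 0.13 with Elovl6. These values describe 8 samples that share the group difference and the array measure above, and carry no test.

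Other enzymes of the same pathways were then read from 8 lists, taking the brightest tested probe of each gene and the same limma fit, in which 3.62% of all gene symbols were called. Without control replicate 2, 26.5% of all gene symbols were called higher and 14.6% lower, and with the covariate 4.39% and 6.18%. The counts from those fits below are to be set beside these shares. Of 10 other hydroxysteroid dehydrogenases tested, none was called, and their median difference was -0.07. Hsd3b7, an enzyme of bile acid synthesis, had the greatest positive difference of the list at 1.44 (SE 0.49, adjusted p = 0.181, limma). Its values were -3.89, -3.54, -3.18 and -3.94 in the stressed rats and -5.91, -3.51, -5.46 and -5.42 in the controls, so that control replicate 2 lay among the stressed rats. Hsd3b1, which makes progesterone from pregnenolone, had the most negative at -0.36 (adjusted p = 0.473, limma), and was well above background on 3 of the 4 stress arrays. When control replicate 2 was left out, Hsd3b7 was called higher (1.96, adjusted p = 0.00138, limma) and Hsd11b2, Hsd17b8 and Nsdhl lower, and with the covariate Hsd3b7 differed by 0.23 and only Hsd17b3 was called, lower. With normexp background correction Hsd3b7 differed by 0.72.

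Of 6 other genes of the elongation cycle tested, none was called, and the median was 0.06. Elovl4, the elongase of the longest chains, differed by 1.10 (SE 0.36, adjusted p = 0.170, limma) with control replicate 2 again among the stressed rats: -4.84, -4.69, -4.54 and -4.75 against -6.48, -4.63, -6.08 and -6.02. Tecr, the reductase that closes the cycle after Hsd17b12 and the dehydratase have acted, gave 5.65, 5.58, 5.54 and 5.55 in the stressed rats and 5.55, 5.82, 5.45 and 5.50 in the controls. Its difference was 0.00013 (adjusted p = 0.999, limma), the lowest of this list. Without control replicate 2, Elovl4 (1.49, adjusted p = 0.00079, limma) and Elovl7 were called higher, whereas with the covariate none of the 6 was and Elovl4 differed by 0.20. With normexp background correction Elovl4 differed by 0.46.

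In fatty acid synthesis, desaturation and activation, 2 of 17 genes were called, and the median difference was 0.23. Scd, a stearoyl-CoA desaturase that makes monounsaturated fatty acids, rose, with 6.11, 6.10, 6.16 and 5.95 in the stressed rats against 5.75, 5.85, 5.75 and 5.74 in the controls (difference 0.31, SE 0.07, adjusted p = 0.0919, limma). Acsl5, which activates fatty acids by joining them to coenzyme A, fell, with -0.69, -0.71, -0.81 and -0.64 against -0.39, -0.48, -0.39 and -0.33 (difference -0.31, SE 0.07, adjusted p = 0.0827, limma). For both, the groups did not overlap. Acsl6, a relative found in brain, had the greatest positive difference at 1.08 (adjusted p = 0.161, limma). In the fit that leaves out control replicate 2, 9 of the 17 were called, 7 of them higher. In that fit 26.5% of all gene symbols were called higher and 14.6% lower. With the covariate Acsl3 alone was called, higher, at a list median of -0.03.

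In sphingolipid synthesis, where the very long chains made with Hsd17b12 are used, 1 of 15 genes was called and the median was 0.07. Sgms1, a sphingomyelin synthase, rose from -1.92, -1.64, -1.81 and -1.80 in the controls to -1.44, -1.30, -1.16 and -1.44 in the stressed rats (difference 0.46, SE 0.10, adjusted p = 0.0765, limma), with no overlap. Lass2, the array's name for ceramide synthase 2, which takes very long chains, differed by 1.16 (SE 0.44, adjusted p = 0.206, limma). It gave -1.18, -0.88, -0.51 and -1.33 in the stressed rats and -2.87, -0.79, -2.62 and -2.25 in the controls, with control replicate 2 inside the range of the stressed rats. Degs1, the ceramide desaturase, had the most negative difference at -0.24 (adjusted p = 0.321, limma). With control replicate 2 left out, 7 of the 15 were called, all higher and Lass2 among them (1.61, adjusted p = 0.00297, limma), beside 26.5% of all gene symbols. With the covariate none of the 15 was called and Lass2 differed by 0.08.

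In peroxisomal fatty acid oxidation, the setting of Hsd17b4, 1 of 16 genes was called, with a median of 0.01. Decr2, the peroxisomal dienoyl-CoA reductase, rose, with -3.50, -3.36, -3.53 and -3.41 in the stressed rats against -4.0, -3.66, -3.99 and -3.88 in the controls (difference 0.44, SE 0.10, adjusted p = 0.0816, limma). The extremes of this list were otherwise Ehhadh, the L-bifunctional enzyme, at 0.65 (adjusted p = 0.266, limma) and Amacr, a racemase for branched chains, at -0.24 (adjusted p = 0.635, limma). The sign of Amacr differed between the fits: without control replicate 2 it was called lower (-0.56, adjusted p = 0.00168, limma), and with the covariate higher (0.45, adjusted p = 0.0846, limma). Ehhadh was called with the covariate (1.2, adjusted p = 0.0792, limma) and not without control replicate 2 (0.38), where Decr2 and Phyh were called higher. None of 13 genes of mitochondrial oxidation and RNase P was called, with a median of -0.02 and a range from Acadvl at -0.19 (adjusted p = 0.219, limma) to Acadsb at 0.77 (adjusted p = 0.251, limma), both acyl-CoA dehydrogenases. Of these 13, 5 were called without control replicate 2, 3 higher and 2 lower, with Acadsb at 1.14 (adjusted p = 0.00176, limma). In that fit 26.5% of all gene symbols were called higher and 14.6% lower. With the covariate none of the 13 was called and Acadsb was at -0.06.

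Of 11 genes of neurosteroid synthesis, none was called, and the median was 0.02. They ran from Star, the carrier of cholesterol into mitochondria, at -0.16 (adjusted p = 0.535, limma) to Cyp17a1 at 0.51 (adjusted p = 0.211, limma). Cyp17a1 and Srd5a2 were called higher and Star lower without control replicate 2, and with the covariate Por, the electron donor of steroid-making P450 enzymes, alone was called, lower. Of 9 lipid droplet genes, Dgat1, which makes triglyceride, was called and fell, with -0.07, -0.17, -0.24 and 0.0032 in the stressed rats against 0.27, 0.31, 0.27 and 0.26 in the controls (difference -0.40, SE 0.07, adjusted p = 0.0607, limma). Its groups did not overlap. Abhd5, the partner of the triglyceride lipase, had the greatest positive difference at 0.69 (adjusted p = 0.199, limma), and the median of the list was 0.23. Of these 9 genes, 5 were called without control replicate 2, 2 higher and 3 lower, with Abhd5 at 0.94 (adjusted p = 0.00433, limma). In that fit 26.5% of all gene symbols were called higher and 14.6% lower. With the covariate Dgat1 and Dgat2 were called lower and Abhd5 was at 0.10.

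**Figure D4:**
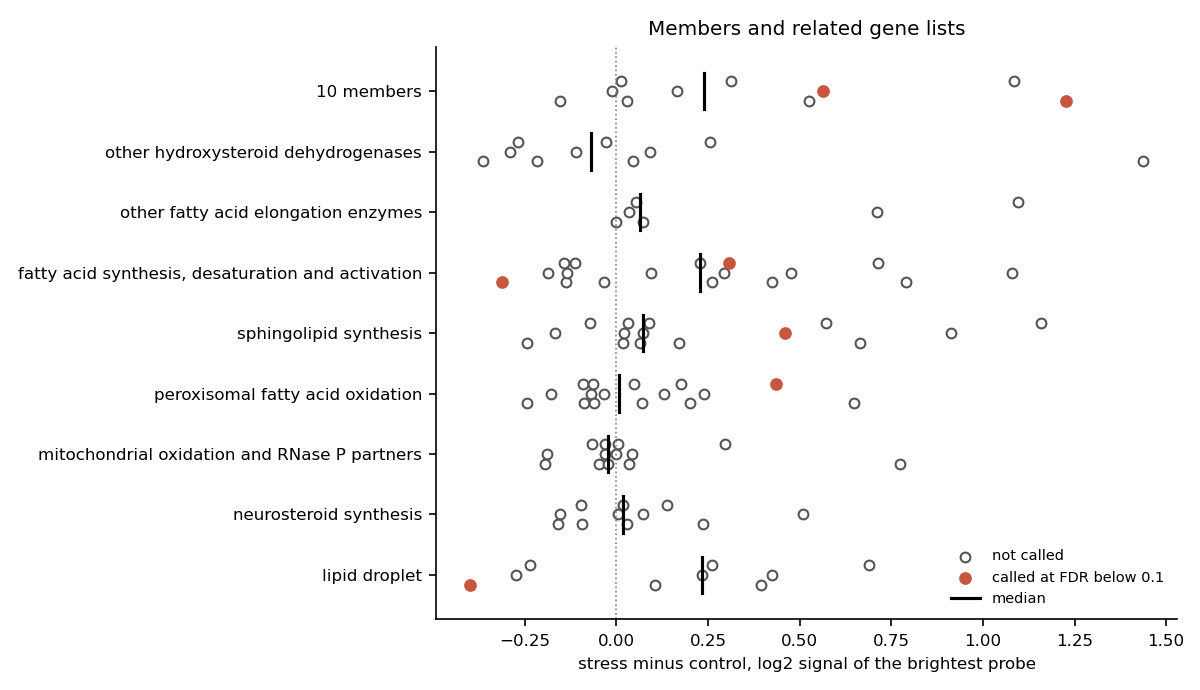
Stress minus control difference (horizontal axis, log2, brightest tested probe of each gene) of the 10 genes in the top row and of 8 related lists below, 1 point per gene, with the median of each row as a black line. Filled points were called by limma at FDR below 0.1; apart from Hsd17b12 and Hsdl2 these were Scd, Acsl5, Sgms1, Decr2 and Dgat1.

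With the 5′ to 3′ balance as a covariate, Dgat1 stayed called (-0.41, adjusted p = 0.0596, limma), and Scd (0.24), Acsl5 (-0.25), Sgms1 (0.33) and Decr2 (0.27) kept their sign with adjusted p between 0.106 and 0.133. Without control replicate 2, where 42.4% of all probes were called, all 5 stayed called at adjusted p between 0.00243 and 0.00936 (limma). The 5 had been named for their calls in the same arrays, so this gives no further support. Without any other single array none of the 5 was called (adjusted p between 0.109 and 0.268, limma). All 5 calls were also lost with normexp background correction (adjusted p between 0.102 and 0.343), those of Scd and Decr2 with quantile scaling (0.164 and 0.148), and that of Scd with the probe GC trend removed (0.175).

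Where the outermost probes of a transcript began 300 bases or more from each other, the upstream one more often gave the greater difference. This was so for 9 of the 12 such transcripts in the 10 genes and the 8 lists (75%, median excess 0.37), beside 1513 of 1885 over the array (80.3%, median 0.28). Fa2h, the fatty acid hydroxylase of myelin lipids, differed by 1.0 (SE 0.27) at base 389 and by 0.07 (SE 0.13) at base 2156 (exact permutation p = 0.0286, two-sided, n = 4 against 4, the smallest possible). Elovl2 differed by 0.64 upstream and 0.03 downstream, and Pex5, the peroxisomal import receptor, by 0.64 and -0.03. Elovl1, Cidea and Lipe went the other way. Hsd17b12, at base 374, and Hsdl2, at base 945, had no second probe on the array, so this comparison could not be made for them.

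**Figure D5:**
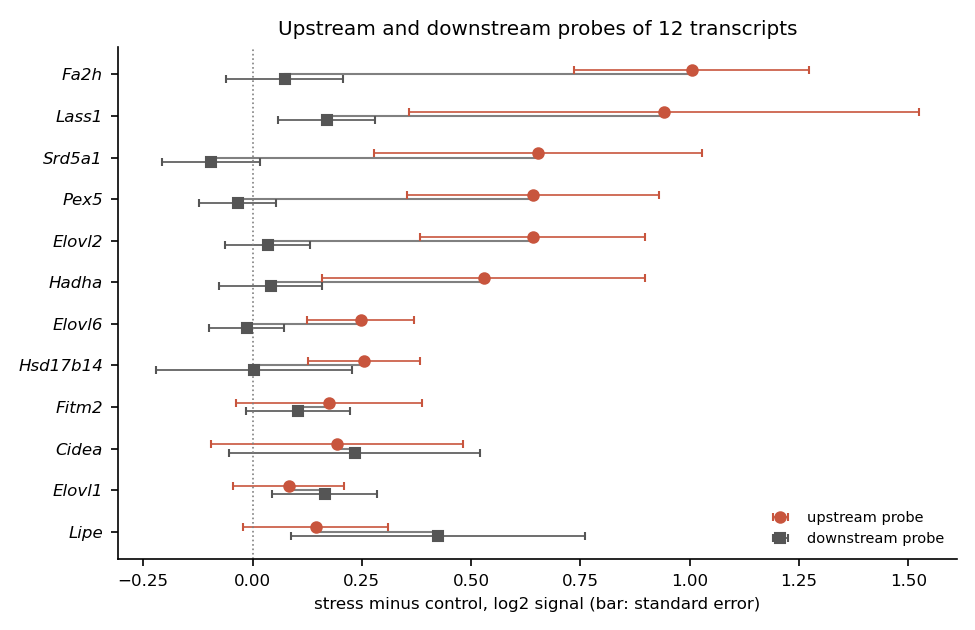
Stress minus control difference (horizontal axis, log2, bars are SE) of the most upstream (circles) and most downstream (squares) probe of the 12 transcripts that had a pair of them. The upstream probe lies to the right for 9 of them, Elovl6 included, and to the left for Elovl1, Cidea and Lipe.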

How the data were processed

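The authors deposited a Feature Extraction (version 10.7.3.1) file for each array, whose processed signal is a background-corrected intensity. They also deposited the same processed intensities, rounded, in a table of the series, which served as an alternative. The methods name dChip, and its normalization and test are not given in the sources used here. Outlier spots were left out, log2 signals were set against the 75th percentile of their array and spots of a probe averaged. Probes that passed Feature Extraction's test for a signal well above background on 4 or more of 8 arrays were tested (23678). Differences were tested with limma 3.58.1 in R 4.3.3 (data.table, version 1.17.8; lmFit, eBayes, Benjamini-Hochberg over all tested probes), a call being FDR below 0.1; the procedure was first tested on simulated data. Single values were compared by exact permutation over the 70 choices of 4 arrays. The genes and lists were chosen with earlier results of these data known. Named were the 10 genes at every probe, the called genes and both extremes of each list, and the 5 closest profiles of Hsd17b12 and Hsdl2; the choice of further probe pairs to name came after seeing their values. The number of arrays limits the precision. Coordinates are those of rn4 in the file headers. Alternatives were normexp background correction (offset 50), quantile scaling, the deposited table, other filters and variance models, a replicate block, covariates and leaving out each array.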

Additional observations from a re-analysis of the deposited data

Results flagged for a closer look

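Of 66 groups of 4 samples examined for a single sample far from the rest, 6 stood out, each in control replicate 2. For a single group chance gives about 1 in 20. These groups reuse the same 8 arrays, and many of the genes were named for their calls or extremes in these data. That rate is therefore no yardstick for the 6. The measure was the gap to the nearest sample as a share of the range of the group, set against Dixon's critical value. It reached 0.949 for Hsd17b7 and 0.916 for Elovl5, in both of which control replicate 2 was the highest control. Among genes of the lists it was 0.901 for Scd, 0.869 for Acadsb and 0.898 for Abhd5, again with control replicate 2 as the highest control, and 0.870 for Amacr, with that sample the lowest at -1.56 against -0.22, -0.32 and -0.39 in the other controls. The same sample had the 5′ to 3′ balance of 0.22, and limma's array weights gave it 0.107, the lowest of the 8 arrays. The cause was not tested.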

How the results depend on the processing

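Hsd17b12 stayed higher in stressed rats in all 20 alternatives (0.68 to 1.45), as did Hsdl2 (0.32 to 0.66), and Hsd17b10 stayed lower (-0.25 to -0.06). Hsd17b12 and Hsdl2 were chosen from these same data, so their lasting sign is a description and gives no support. Of the 10 genes, 2 were called in the reported fit, 1 with normexp background correction, 6 with array weights and 0 with the replicate block. Leaving out 1 array at a time gave 0 to 6, with 6 without control replicate 2 and 0 without any other array. The 885 probes called became 215 with normexp, 3010 with no filter on dim probes, 11983 with array weights, 2390 with the 5′ to 3′ balance as a covariate and 0 with the replicate block (4292 at unadjusted p under 0.05, and Scd, Acsl5, Sgms1, Decr2 and Dgat1 at adjusted p 0.207 to 0.223), and 0 to 10036 without 1 array, the highest again without control replicate 2. The share of higher calls moved from 655 of 885 to 190 of 215 with normexp, 685 of 1180 with quantile scaling, 609 of 1048 with the GC trend removed and 1151 of 2390 with the covariate. Replicate numbers did not pair the samples: the deviations of same-numbered samples correlated at 0.10, 0.12, -0.09 and 0.31, and 1 of 8 arrays correlated best with its own number. Among the genes chosen for their function, signs turned as follows. Hsd17b11 turned to -0.0020 with normexp, -0.16 with the covariate and -0.063 with the GC trend removed, and ran from -0.050 to 0.10 without 1 array (below 0 without stress replicate 3, control replicate 3 or control replicate 4). The downstream Elovl6 probe turned to 0.023 with quantile scaling and 0.032 with array weights, and ran from -0.059 to 0.032 without 1 array (above 0 without stress replicate 4, control replicate 1 or control replicate 2). The upstream Elovl1 probe turned to -0.14 with the covariate, -0.0047 with the GC trend removed, and ran from -0.0014 (without stress replicate 3) to 0.17 without 1 array, where Hsd17b4 ran from -0.0096 (without stress replicate 3) to 0.058. The covariate also turned Hsdl1 (-0.27), Hsd17b7 (-0.10) and Elovl5 (-0.12). The cause was not tested.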
